A study of Mus musculus with 6 samples.

Results

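Mouse embryonic fibroblasts without poly(ADP-ribose) polymerase 1 were compared with wild-type fibroblasts on 2 of the 6 arrays of the study, those whose titles pair wild type with PARP-1 null. On each array every one of 16504 named genes has a ratio, which for some is exactly 0. The value described is the mean log2 ratio of the 2 arrays against 0, with both arrays given. The other 4 arrays set a Wrn mutant and a Wrn-PARP1 double mutant against wild type, 2 arrays each, and serve below only to show where the PARP-1 null differs from them.

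PARP-1 is an abundant nuclear enzyme that binds broken DNA and, from NAD+, builds chains of ADP-ribose on itself, on histones and on other proteins around the break. The chains draw in the single-strand break repair proteins, loosen chromatin and are cut down again by PARG. Apart from repair, PARP-1 sits at many promoters and is known as a partner of NF-kB, the transcription factor of inflammatory genes, and cells without it depend more on PARP-2.

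The PARP-1 null cells carry a null Parp1 allele, the Wrn mutant cells an in-frame deletion within the helicase region of Wrn, and the double mutant cells both. Wild-type cells carry neither change. All 4 genotypes share the mixed 129/Sv and Black Swiss background, so unlinked strain differences can segregate between litters. Embryos were 15.5 days old, each RNA pool joined 3 embryos of 1 litter, a second litter was used for every genotype, and cytoplasmic RNA was taken at passage 2, after 10 population doublings in medium with 10% calf serum. Whether the duplicate array of a genotype holds its second litter is not stated. An outgrowth of a whole embryo holds several cell types besides fibroblasts, and in such bulk RNA more cells of a type cannot be told apart from more RNA per cell.

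Mutant RNA carried Cy3 and wild-type RNA Cy5 on all arrays, with no dye swap and no array of wild type alone. Any dye bias of a probe therefore enters the ratio that is tested against 0, and the spread between wild-type pools may be left out of that test in part or whole. Positive values are read as PARP-1 null over wild type. This reading is likely and not certain. It rests on Parp1 itself, which is low under it, and on the design text, which takes wild type as the baseline. Agilent's usual ratio, Cy5 over Cy3, would with these dyes be wild type over PARP-1 null, and would mirror every direction below. Array 2 was the wider of the pair: the SD over named genes was 0.891 on array 2 and 0.695 on array 1, with 22 spots at the upper end of the deposited scale on array 2 and 1 on array 1. Over the named genes the 2 arrays correlated with Pearson's r of 0.59, a description across genes that share probes, dyes and the wild-type partner. The median gene differed little between them, with an SD of 0.187 on the log2 scale, genes at exactly 0 on both arrays included. A gene is said to have risen or fallen where limma's moderated test, fitted over all 6 arrays, gave a Benjamini-Hochberg adjusted p under 0.05.

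Of the named genes, 549 rose and 638 fell, which is 3.33% and 3.87% of those tested and 7.19% together. The change was at least 2-fold in 632 of these 1187 genes, 251 that rose and 381 that fell, and at least 8-fold in 14 that rose and 27 that fell. Named genes at exactly 0 numbered 1905 on both PARP-1 null arrays and 1470 on 1. None of these passed, yet they count among the genes tested in every share of all named genes. Whether such a 0 is measured or a placeholder is not stated. A rule without a test, a 2-fold change in the same direction on both arrays, was met by 1078 genes (6.53%), 445 up (2.70%) and 633 down (3.84%), and 542 of them also passed limma's test. The count rests on few arrays. With array 1 of the PARP-1 null left out 594 genes passed, of which 170 were among the 1187, and with array 2 left out 56 passed, of which 17 were. On the 2 PARP-1 null arrays alone limma called 0 genes, with 3815 at an unadjusted p under 0.05, against 4536 in the fit of 6 arrays. It passed 597 genes without either Wrn mutant array and 318 without either double-mutant array, since each feeds the shared estimate of spread. All 1187 genes had the same sign on both arrays, which a test of the mean of these arrays makes likely from the start.

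**Figure D1:**
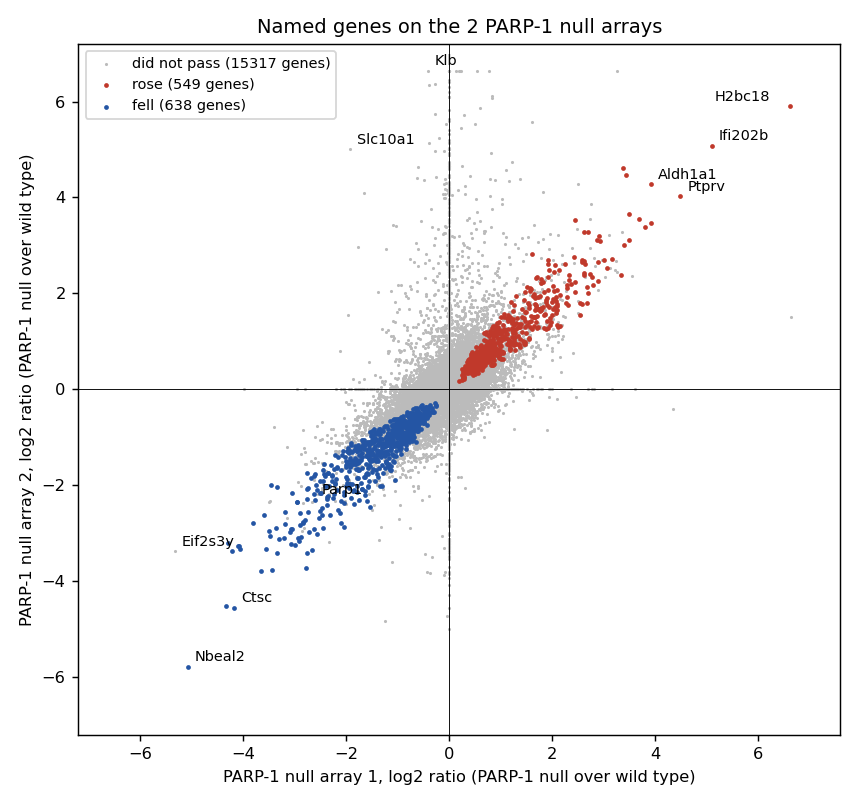
Log2 ratio of PARP-1 null over wild type for each of 16504 named genes on array 1 (horizontal axis) and array 2 (vertical axis). Genes that rose (red, 549) or fell (blue, 638) lie near the diagonal, whereas a group of grey points near 0 on the horizontal axis, Klb among them, was high on array 2 alone.

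Parp1, the gene with the null allele, lay at -2.61 and -2.30 on the 2 PARP-1 null arrays, a mean of -2.45 ± 0.22 (SD, n = 2; limma, Benjamini-Hochberg adjusted p = 0.0104). It was low on both, while it stood at -0.12 and -0.31 in the Wrn mutant. Its direction is no separate finding, since the sign of all ratios was read in part from Parp1 being low. The mRNA ratio thus corresponds to 5.48-fold less signal, and whether the rest is leftover transcript or probe background was not tested. Wrn itself did not pass, at 0.045 and -0.29.

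None of the other enzymes of ADP-ribose turnover passed: Parp1 was 1 of 26 measured members of that list to fall and 0 rose, 3.85% against the 7.19% of all named genes. Parp2, which encodes the closest relative of PARP-1 and also answers DNA breaks, was at -0.59 and -0.60, similar on the 2 arrays but with an adjusted p of 0.138 in limma. Parp16, which encodes a PARP of the endoplasmic reticulum membrane, was at 1.17 and 2.77 and did not pass (adjusted p = 0.0832). Macrod1, whose product removes ADP-ribose from proteins, fell just short at 0.56 and 0.73 (adjusted p = 0.0504).

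In base excision and single-strand break repair, the pathway PARP-1 serves most directly, limma called 0 of 22 measured genes, with 3 at an unadjusted p under 0.05 (27.5% of all named genes reached that). Xrcc1, the scaffold that binds ADP-ribose chains, was at -0.25 and -0.25. The RecQ helicase and telomere list gave 0 of 18, with 7 at an unadjusted p under 0.05. In the double-strand break and Fanconi list 3 of 33 measured genes passed (9.09%, against 7.19% of all named genes). Atm, the kinase that signals double-strand breaks, fell by about the same amount on both arrays, -0.84 and -0.78 (adjusted p = 0.0104), with -0.092 and -0.12 in the Wrn mutant. Xrcc5, which encodes the Ku80 end-binding protein, fell by little, to -0.26 and -0.33. H2ax, the histone variant phosphorylated at breaks, rose to 0.68 and 0.86. Among 20 mismatch and nucleotide excision repair genes 2 passed, also near the background: Ercc1, a nuclease subunit, rose (0.77 and 1.11) and Msh5, a MutS relative of meiosis, fell (-3.18 and -2.56). Msh5 was as low in the Wrn mutant, at -2.33 and -3.58.

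PARP-1 is a large consumer of NAD+, and 1 of 26 measured genes of NAD metabolism and the sirtuins passed (3.85%, against 7.19% of all named genes). That was Nnmt, which encodes the enzyme that methylates nicotinamide, at -1.44 and -1.41 in the PARP-1 null, while the Wrn mutant had -0.31 and 0.057. Both PARP-1 null arrays lay below both Wrn mutant arrays. Qprt, of NAD synthesis from tryptophan, was at -1.31 and -1.26 and did not pass (adjusted p = 0.0761 in limma).

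p53 targets passed in 7 of 34 measured cases (20.6%, against 7.19% of all named genes), 2 up and 5 down. The genes that rose were Ptprv, which encodes a receptor-type phosphatase, at 4.48 and 4.02, and Tigar, whose product lowers glycolytic flux, at 2.62 and 2.38. Most genes that fell encode proteins of cell death. Bbc3 and Pmaip1, which encode the BH3-only death proteins Puma and Noxa, lay at -1.44 and -1.04 and at -1.25 and -1.31. The nuclease gene Aen lay at -1.76 and -1.47, the death receptor gene Eda2r at -1.77 and -1.85 and Sfn, which encodes the cell cycle inhibitor 14-3-3 sigma, at -0.95 and -1.25. Every one of these 7 genes kept its sign on both arrays, as did all 1187 genes that passed. Cdkn1a, the p21 gene and the best known target, was at 0.35 and 0.36 and did not pass (adjusted p = 0.431), and Mdm2, which encodes the ligase that degrades p53, was at -1.43 and -0.98 and did not pass either (adjusted p = 0.112). The list therefore did not move one way: its median was -0.14, against 0 for all named genes. Tigar set the PARP-1 null apart from both other mutants, as the double mutant had 0.81 and 0.54 and the Wrn mutant -0.30 and 0.20, while for Aen the Wrn mutant had -1.49 and -1.82. Of 33 apoptosis regulators 2 fell and 0 rose (6.06%), near the 7.19% of all named genes. Those that fell were the initiator caspase gene Casp9 at -2.24 and -2.17 and the caspase-8 inhibitor gene Cflar at -0.55 and -0.61.

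Cell cycle genes passed at about the share of all named genes. Among cyclins and CDK inhibitors 8.82% passed, and 13 of 34 (38.2%) were at an unadjusted p under 0.05 in limma. DNA replication had 8 of 42 (19.05%) and mitosis 10 of 39 (25.6%) at that level, against 27.5% of all named genes. Of 34 cyclins and CDK inhibitors Rb1, the retinoblastoma gene, rose (0.83 and 0.88) and Ccnd1 and Cdc25a, both promoters of the G1 to S step, fell (-1.44 and -1.01 for Ccnd1 and -1.16 and -1.15 for Cdc25a). DNA replication had 2 of 42 genes past the test (4.76%) and mitosis 3 of 39 (7.69%), both near the 7.19% of all named genes.

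The largest increase of all was in a histone gene. H2bc18, a replication-type H2B gene, lay at 6.62 and 5.91, a mean of 6.26 ± 0.51 (SD, n = 2) or 76.8-fold (limma, adjusted p = 0.0104). Both arrays stood close to the end of the deposited scale, which is 6.64. The double mutant stood at 3.07 and 2.65, and the Wrn mutant at -0.00033 and -0.14. Other H2B genes did not move with it: H2bc12 was at -0.30 and -0.39 and H2bc1 at -0.11 and -0.33. The upstream sequences of these 3 genes are set side by side because histone H2B promoters are known for the octamer ATTTGCAT, a binding site of the factor Oct-1. They are the 250 bases before the RefSeq start in build GRCm38.p6, at chr3:96269450-96269699 on the plus strand for H2bc18, chr13:22035571-22035820 on the plus strand for H2bc12 and chr13:23934157-23934406 on the minus strand for H2bc1, and capitals mark the octamer.
H2bc18: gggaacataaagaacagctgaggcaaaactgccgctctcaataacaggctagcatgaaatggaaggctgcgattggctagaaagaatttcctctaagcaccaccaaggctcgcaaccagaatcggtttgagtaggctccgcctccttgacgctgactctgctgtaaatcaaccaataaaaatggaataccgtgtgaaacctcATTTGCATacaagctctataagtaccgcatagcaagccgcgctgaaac
H2bc12: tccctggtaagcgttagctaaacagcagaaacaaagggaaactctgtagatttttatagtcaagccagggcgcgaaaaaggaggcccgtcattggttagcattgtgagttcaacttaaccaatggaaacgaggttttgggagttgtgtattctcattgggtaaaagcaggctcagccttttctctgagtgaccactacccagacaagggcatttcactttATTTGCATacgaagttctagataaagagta
H2bc1: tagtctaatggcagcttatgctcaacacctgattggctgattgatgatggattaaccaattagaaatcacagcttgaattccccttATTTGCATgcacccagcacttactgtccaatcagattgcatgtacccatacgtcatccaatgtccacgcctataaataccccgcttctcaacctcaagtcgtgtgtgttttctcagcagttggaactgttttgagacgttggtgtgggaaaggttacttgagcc
The octamer, searched on both strands, occurred once in each window, beginning 48, 30 and 164 bases before the start in this order, and in 526 of 32851 RefSeq windows of the same length (1.60%). The gene that rose and those that did not thus carry the same letters. In the histone list as a whole 3 of 25 measured genes rose, H2bc18, H2ax and the linker histone gene H1f3 (0.89 and 0.72). H2ac6 fell (-0.74 and -0.63), which made 16% in all, against 7.19% of all named genes. H2B genes are near-identical in their coding parts, and no source used here says whether other copies reach the H2bc18 probe.

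Interferon-related genes were taken as 2 lists, whose difference was not tested. Among 17 measured interferon-inducible GTPases and Ifi200 genes 3 rose and 1 fell (23.5%). Among 30 classical antiviral genes 0 rose and 2 fell (6.67%), and of all named genes 7.19% passed. Ifi202b, which encodes a DNA-binding Ifi200 protein of the mouse, was the most even of the large changes, at 5.10 and 5.08, 34.0-fold above wild type (adjusted p = 0.0104). It was 4.53 and 4.80 in the double mutant and below wild type in the Wrn mutant, at -1.53 and -1.37. Of its family, Ifi209 fell (-2.10 and -2.78), Ifi205 was at -1.54 and -1.67 without passing (adjusted p = 0.0604), and Ifi204 was at 0.99 and 0.84 without passing (adjusted p = 0.206). Neighbouring members of the family thus lay far apart in both directions.

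Gbp2b and Gbp2, guanylate-binding proteins induced by interferon-gamma, rose to 3.80 and 3.39 for Gbp2b and 1.67 and 1.90 for Gbp2. Gbp2 was also high in the Wrn mutant, at 1.57 and 1.66, and Gbp2b was not, at 0.54 and -0.011. Gbp4 was at 0.41 and 4.44, high on array 2 only, and did not pass (adjusted p = 0.273). The upstream sequences of the 2 genes that rose are given because interferon-response elements, which repeat GAAA, are known from such promoters. They are the 250 bases before the start in GRCm38.p6, at chr3:142594597-142594846 and chr3:142620413-142620662, both on the plus strand. Capitals mark the match to GAAANNGAAA, which lies on the opposite strand and so reads reversed here.
Gbp2b: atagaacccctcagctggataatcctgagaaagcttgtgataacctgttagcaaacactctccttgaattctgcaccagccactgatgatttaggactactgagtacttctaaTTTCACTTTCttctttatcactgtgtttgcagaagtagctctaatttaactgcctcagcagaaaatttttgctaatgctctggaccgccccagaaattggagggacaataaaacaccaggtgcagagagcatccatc
Gbp2: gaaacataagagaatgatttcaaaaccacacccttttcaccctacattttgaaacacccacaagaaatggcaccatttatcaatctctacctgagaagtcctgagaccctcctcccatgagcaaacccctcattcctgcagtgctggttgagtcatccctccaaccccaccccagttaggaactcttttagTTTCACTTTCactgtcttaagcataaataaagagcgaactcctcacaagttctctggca
Each window held 1 match on the 2 strands together, as did 978 of the 32851 windows of RefSeq starts at least once (2.98%). In the antiviral list the genes that fell were Rsad2, which encodes viperin, at -1.79 and -2.01, and Adar, an RNA editing enzyme, at -0.60 and -0.86. Irf7, a master regulator of type I interferon, was at -0.70 and -0.71 and did not pass (adjusted p = 0.211).

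MHC class I presentation had 4 of 21 genes that fell and 0 that rose (19.05%, against 7.19% of all named genes). The class I heavy chain genes H2-D1 (-1.90 and -1.17) and H2-Q1 (-1.54 and -0.89) fell. So did the peptide transporter gene Tap1 (-0.77 and -0.87) and the immunoproteasome gene Psmb10 (-1.83 and -1.18). B2m, the light chain gene, was on the other side of 0, at 0.79 and 1.33, and did not pass (adjusted p = 0.271). Psmb10 was as low in the Wrn mutant (-1.61 and -1.19), while H2-D1 was -0.92 and -0.73 there.

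NF-kB subunits and inflammatory targets had 3 of 32 genes that rose and 1 that fell (12.5%, against 7.19% of all named genes). Il6, the inflammatory cytokine, rose to 2.88 and 2.65, a mean of 2.77 ± 0.16 (SD, n = 2; adjusted p = 0.0104). The double mutant had 2.95 and 2.83 and the Wrn mutant 0.81 and 1.22, so all 4 arrays of cells without PARP-1 lay above both Wrn mutant arrays. Csf3, the granulocyte growth factor, rose to 1.26 and 1.33, with 1.27 and 1.31 in the Wrn mutant. Tnfaip3, which encodes the A20 brake on NF-kB signalling, fell to -1.17 and -0.96, and the inhibitor gene Nfkbib rose to 0.33 and 0.44. Saa3 (1.82 and 4.12) and Lcn2 (1.23 and 4.74), both acute-phase genes, and Tnf (0.052 and 2.57) were far higher on array 2 and did not pass, with adjusted p of 0.171, 0.166 and 0.321 in limma. The 250 bases upstream of the Il6 start, at chr5:30012864-30013113 on the plus strand in GRCm38.p6, are shown because an NF-kB site is well known there. Capitals mark the match to GGGANTTTCC.
Il6: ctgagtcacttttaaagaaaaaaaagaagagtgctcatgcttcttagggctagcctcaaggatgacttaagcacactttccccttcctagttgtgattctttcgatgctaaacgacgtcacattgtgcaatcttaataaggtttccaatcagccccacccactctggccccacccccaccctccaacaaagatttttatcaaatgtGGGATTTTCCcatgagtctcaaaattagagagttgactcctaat
The match began 44 bases before the start, and 117 of the 32851 RefSeq windows (0.356%) held such a match on either strand. Il18, a cytokine of the interleukin-1 family, rose as well, to 2.90 and 2.26.

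Immediate-early genes are the transcription factors and their like that cells switch on within minutes of serum or stress. Of 33 measured, 6 rose and 1 fell (21.2%, against 7.19% of all named genes). Egr1 lay at 2.11 and 1.31 and Egr2 at 2.09 and 1.33. Nr4a1, an orphan nuclear receptor gene, lay at 1.77 and 1.68, and Klf2 at 1.30 and 1.94. Junb and Ier2 were lower, at 1.36 and 0.93 for Junb and 1.28 and 1.09 for Ier2. All 6 were above 0 on both arrays, as was every gene that rose. Nr4a2, close kin of Nr4a1, went the other way, at -0.87 and -1.13. Dusp1, a phosphatase gene that limits MAP kinases, was at 1.17 and 1.54 and did not pass, with an adjusted p of 0.192 in limma. Zfp36, an mRNA decay factor gene, was at 1.38 and 1.19 and did not pass (adjusted p = 0.0869). Fos and Jun were near 0, at 0.53 and 0.21 for Fos and 0.36 and 0.19 for Jun. In the Wrn mutant Nr4a1 was -0.37 and -0.083, Ier2 0.22 and 0.26 and Egr2 0.60 and 0.36. Nr4a1 was the 1 gene of this list with both PARP-1 null arrays at least 2-fold above both Wrn mutant arrays (1.62% of all named genes were that far apart in either direction).

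**Figure D2:**
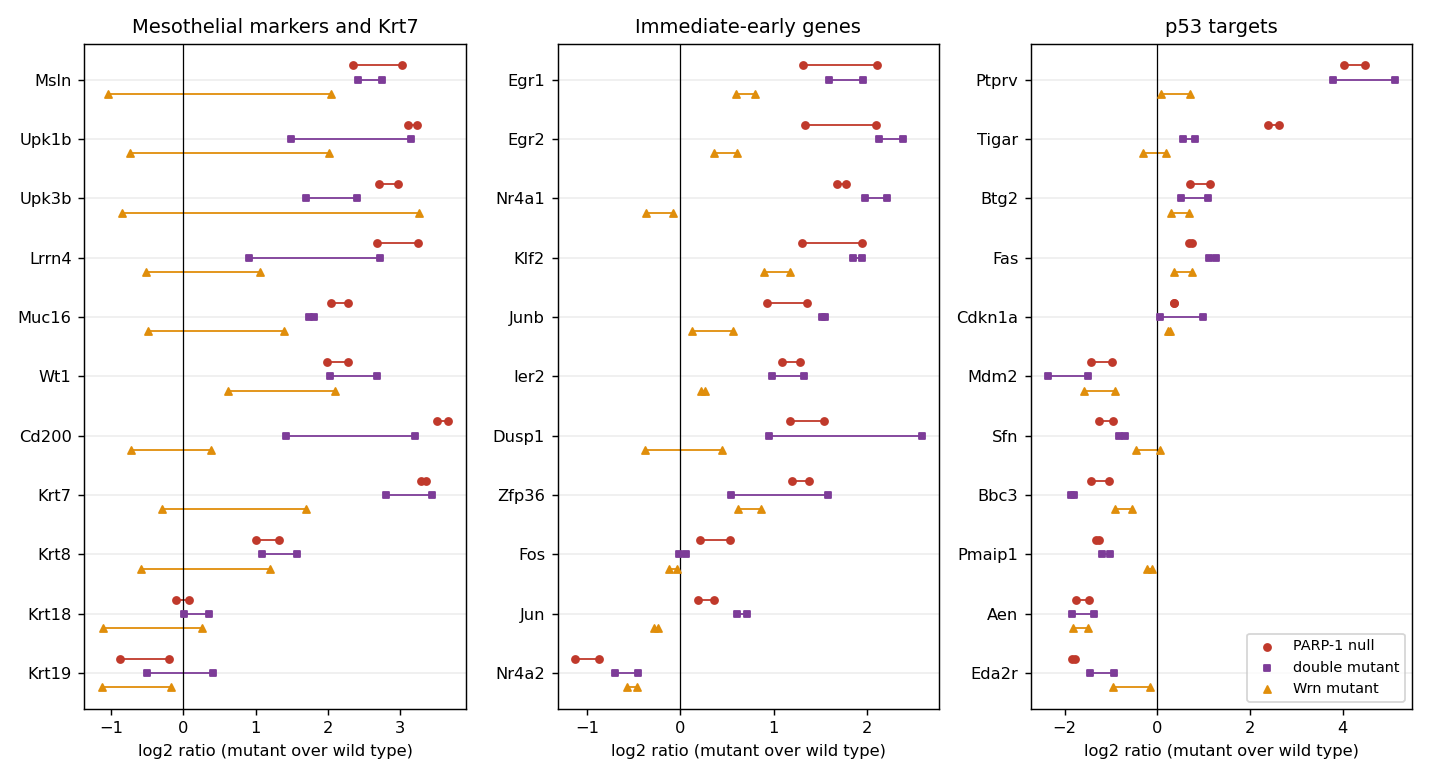
Log2 ratio over wild type on each array (2 points joined by a line) for mesothelial markers with keratins, immediate-early genes and p53 targets in the PARP-1 null (red), double mutant (purple) and Wrn mutant (orange). Msln, Upk1b and Upk3b were high on both PARP-1 null arrays but on 1 of 2 Wrn mutant arrays only, while Nr4a1 and Tigar were evenly near 0 in the Wrn mutant.

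Markers of the mesothelium, the epithelium-like lining of body cavities, had the highest median of the 53 lists examined, 0.93 over 24 measured genes (0.76 on array 1 and 0.82 on array 2). The list median was 0.90 in the double mutant and 0.29 in the Wrn mutant. Lists and members were chosen with earlier results of these data known, so this rank is a description. Only Cd200 passed, at 3.50 and 3.66 (adjusted p = 0.0496 in limma), 4.17% of the list against 7.19% of all named genes. Yet 9 members were 2-fold up on both arrays, as were 2.70% of all named genes. Upk1b lay at 3.10 and 3.23 and Upk3b at 2.97 and 2.70, both uroplakins. The mesothelin gene Msln lay at 3.02 and 2.34 and Lrrn4 at 3.25 and 2.68. Muc16 stood at 2.27 and 2.04 and Wt1, the Wilms tumour factor of this lineage, at 1.99 and 2.27. All were well above 0 on both arrays. None of these 6 passed, with adjusted p of 0.118, 0.213, 0.150, 0.0855, 0.0933 and 0.0757 in the same order. Their spread in the shared fit came in part from the Wrn mutant, whose arrays disagreed: Upk3b was 3.26 and -0.85 there, Msln 2.04 and -1.03 and Upk1b 2.02 and -0.74. The keratin gene Krt7 went with them at 3.35 and 3.28 and narrowly missed (adjusted p = 0.0547). Krt18 and Krt19, also found in mesothelium, did not, at 0.073 and -0.11 for Krt18 and -0.88 and -0.20 for Krt19. Whether the number of mesothelial cells in a culture has a part in other changes was not tested.

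Genes of retinoic acid, a signal that mesothelium and embryonic mesenchyme make, rose in 4 of 25 measured cases and fell in 0. That is 16%, against 7.19% of all named genes. Aldh1a1, an enzyme of the last step of synthesis, was highest at 3.92 and 4.28, with 2.95 and 1.87 in the Wrn mutant. Rarres2, which encodes chemerin, rose to 2.44 and 2.03. Crabp1, a carrier of retinoic acid, and Rdh11, a retinol dehydrogenase gene, rose by less, to 0.95 and 0.99 for Crabp1 and 0.69 and 0.74 for Rdh11. Aldh1a2, the main embryonic enzyme, was at 1.98 and 2.38 and Rbp4, the retinol carrier of blood, at 2.02 and 2.07. Neither passed, with an adjusted p of 0.183 for Aldh1a2 and 0.0588 for Rbp4 in limma. Rxrb, a retinoid receptor gene, was on the low side at -1.61 and -1.14 without passing (adjusted p = 0.0501).

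Of the defining markers of the labelled cell type, the fibroblast core list, 1 of 19 measured genes passed (5.26%, against 7.19% of all named genes). That was Vim, which encodes vimentin and rose to 1.79 and 2.30. Above 0 were 15 of 19 measured members, with a list median of 0.80 (0.70 on array 1 and 0.82 on array 2). Of all named genes 46.3% had a mean above 0 and 42.2% a mean below 0. Col1a2 was at 1.56 and 1.97 and Col1a1 at 0.90 and 1.65, without passing (adjusted p = 0.0780 for Col1a2 and 0.238 for Col1a1). Ratios give no level, so how strongly these cells expressed them is unknown. Of the macrophage and leukocyte markers 1 of 32 passed (3.12%) and 0 fell: the one that rose was the inhibitory Fc receptor gene Fcgr2b (1.89 and 1.86), and 11 members lay above 0 and 18 below, with a list median of -0.11 (-0.33 on array 1 and -0.16 on array 2). Ptprc, the pan-leukocyte marker CD45, was at -0.45 and -0.94, with 1.15 and 0.25 in the Wrn mutant. Limma called 0 of 25 endothelial, 0 of 23 smooth muscle and 0 of 26 cartilage and bone markers. At an unadjusted p under 0.05 were 4, 3 and 4, and 27.5% of all named genes reached that.

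Ctsc and Fcrls lay among the largest decreases. Ctsc, which encodes cathepsin C, the protease that activates granule enzymes of blood cells, lay at -4.19 and -4.55 in the PARP-1 null, whereas the Wrn mutant had 0.98 and 1.08. Fcrls, an Fc receptor-like gene known from microglia, lay at -3.44 and -3.76, with 1.69 and 0.81 in the Wrn mutant. The natural killer receptor genes Klra7 and Klra16 lay at -2.88 and -3.08 for Klra7 and -2.84 and -2.79 for Klra16. They are close relatives and may share signal. All of these were low on both PARP-1 null arrays and near or above 0 in the Wrn mutant. The bone and macrophage cathepsin gene Ctsk fell too, to -2.22 and -1.95. Ctsc and Ctsk were 2 of 27 measured lysosomal genes (7.41%, against 7.19% of all named genes). The macrophage and leukocyte list did not reach the level of Ctsc or Ctsk, with a lowest mean of -1.38. Of its 32 measured genes 3 were 2-fold down and 1 was 2-fold up on both arrays (3.84% and 2.70% of all named genes). Both PARP-1 null arrays were at least 2-fold below both Wrn mutant arrays for 2 and above for 0. Cd48 was at -1.48 and -1.25, with 1.67 and 0.70 in the Wrn mutant. Aif1 was at -0.92 and -0.78 and C1qa at -0.20 and -0.11, and none of these passed the test.

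Adipocyte genes had 4 of 19 members that fell and 0 that rose (21.1%, against 7.19% of all named genes). Pparg, the master regulator of fat cells, was even at -1.43 and -1.39 (adjusted p = 0.0104), with -0.43 and -0.55 in the Wrn mutant. Cebpa (-0.99 and -0.61), the resistin gene Retn (-1.93 and -1.48) and the lipid droplet gene Cidea (-0.99 and -0.77) fell as well. Cebpd, an early adipogenic factor gene, was above 0 at 1.27 and 1.85, and Adipoq at 1.62 and 0.91, neither past the test (adjusted p = 0.0638 for Cebpd and 0.167 for Adipoq). The list median was -0.04, so no common shift of the list accompanied the 4 genes.

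Growth factor genes of the FGF, hedgehog, PDGF and IGF families rose in 6 of 52 cases and fell in 0. That is 11.5%, against 7.19% of all named genes. Fgf9, a mesothelial and mesenchymal growth factor, lay at 2.32 and 1.75, Gdnf, a nerve and kidney growth factor, at 0.9986 and 0.80, and Vegfc, of lymphatic vessels, at 1.13 and 1.44. Egfr, the EGF receptor gene, lay at 1.06 and 1.52, and the imprinted growth factor gene Igf2 at 2.13 and 2.49. Pdgfrl, named for its likeness to PDGF receptors, lay at 2.90 and 3.20. Gdnf differed in direction from the Wrn mutant, which stood at -0.59 and -0.74. Pdgfrl, Igf2, Fgf9 and Vegfc did not: they were 2.90 and 3.48, 2.47 and 2.81, 1.47 and 2.37 and 1.002 and 1.48 there, in the same order. A shared probe bias or the shared wild-type partner could not be told apart from a shared response in these.

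Of 56 measured limb, trunk and body-pattern transcription factor genes 2 rose and 3 fell (8.93%, against 7.19% of all named genes). At an unadjusted p under 0.05 in limma were 23 (41.1%), 14 higher and 9 lower, against 27.5% of all named genes. Alx1, a homeobox gene of face and limb mesenchyme, rose to 3.02 and 2.70, with 0 and -0.35 in the Wrn mutant, and Pax2, a kidney factor gene, rose to 2.68 and 2.14, with 2.23 and 2.31 in the Wrn mutant. Hoxa13 and Hoxd13, the most distal Hox genes, fell, to -2.42 and -1.55 for Hoxa13 and -1.65 and -1.83 for Hoxd13, and were as low in the Wrn mutant (-1.62 and -2.06 and -1.52 and -1.76). Of 35 measured Hox genes 28 were below 0, against 42.2% of all named genes. The list median was -0.30, close on both arrays (-0.38 on array 1 and -0.32 on array 2). Of the 35, 2 passed (5.71%, against 7.19% of all named genes). In the Notch pathway Hes5 and Hes7, targets of the receptor, fell (-4.07 and -3.33 for Hes5, -1.35 and -0.93 for Hes7). Hes6 rose slightly (0.44 and 0.52), which makes 3 of 25 genes (12%, against 7.19% of all named genes). Hes5 was as low in the Wrn mutant, at -3.13 and -4.77, and in the double mutant, at -3.83 and -4.39.

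Sox10, the transcription factor that defines neural crest and glia, rose to 2.29 and 2.18 in the PARP-1 null, against 0.42 and -0.22 in the Wrn mutant. Members of the neural crest and glia list lay on both sides of 0, with 11 above and 8 below and medians of 0 on array 1 and 0.25 on array 2. The highest that did not pass included Mbp, the myelin protein gene, at 2.19 and 2.81 (adjusted p = 0.0914), Fabp7 at 2.75 and 3.85 (adjusted p = 0.104) and Gfap at 2.11 and 3.21 (adjusted p = 0.199). Sox10 and Egr2 were 2 of 21 measured members of the neural crest and glia list to rise (9.52%, against 7.19% of all named genes), and 0 fell. Fabp7 was also high in the Wrn mutant, at 4.32 and 1.47.

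Cornified envelope genes of skin went both ways. Lce1e and Lce1i rose to 3.37 and 4.62 for Lce1e and 3.44 and 4.47 for Lce1i, both higher on array 2, and are near copies that may share signal. They lie 3 measured genes apart on chromosome 3. Sprr1a, another envelope precursor gene, fell to -1.40 and -1.76, Lypd3 to -4.08 and -3.27 and the tight junction gene Cldn1 to -1.91 and -2.27. Lypd3 was low in the Wrn mutant too, at -3.20 and -3.30. Epcam, the epithelial adhesion gene, fell to -1.41 and -1.43, and Cldn3, another tight junction gene, rose to 1.90 and 1.43. In all 3 of 45 epithelial genes rose and 4 fell (15.6%, against 7.19% of all named genes).

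Of 35 measured germ line and meiosis genes 7 fell and 1 rose (22.9%, against 7.19% of all named genes). Rec8, the meiotic cohesin gene, lay at -1.33 and -1.30, Dazl at -1.29 and -2.02 and the Piwi gene Piwil1 at -1.39 and -1.49. The protamine genes Prm1 and Prm2, which package sperm DNA, lay at -2.03 and -1.41 for Prm1 and -0.96 and -0.72 for Prm2. The X-linked Xlr5c and Samt2b were lowest, at -3.64 and -3.78 for Xlr5c and -3.56 and -3.33 for Samt2b, and Zfp42, the Rex1 gene of stem cells, rose to 1.07 and 1.04. Samt2b was near 0 in the Wrn mutant (-0.37 and 0.42), and Xlr5c was as low there (-3.30 and -4.08). The median of the list was 0.

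**Figure D3:**
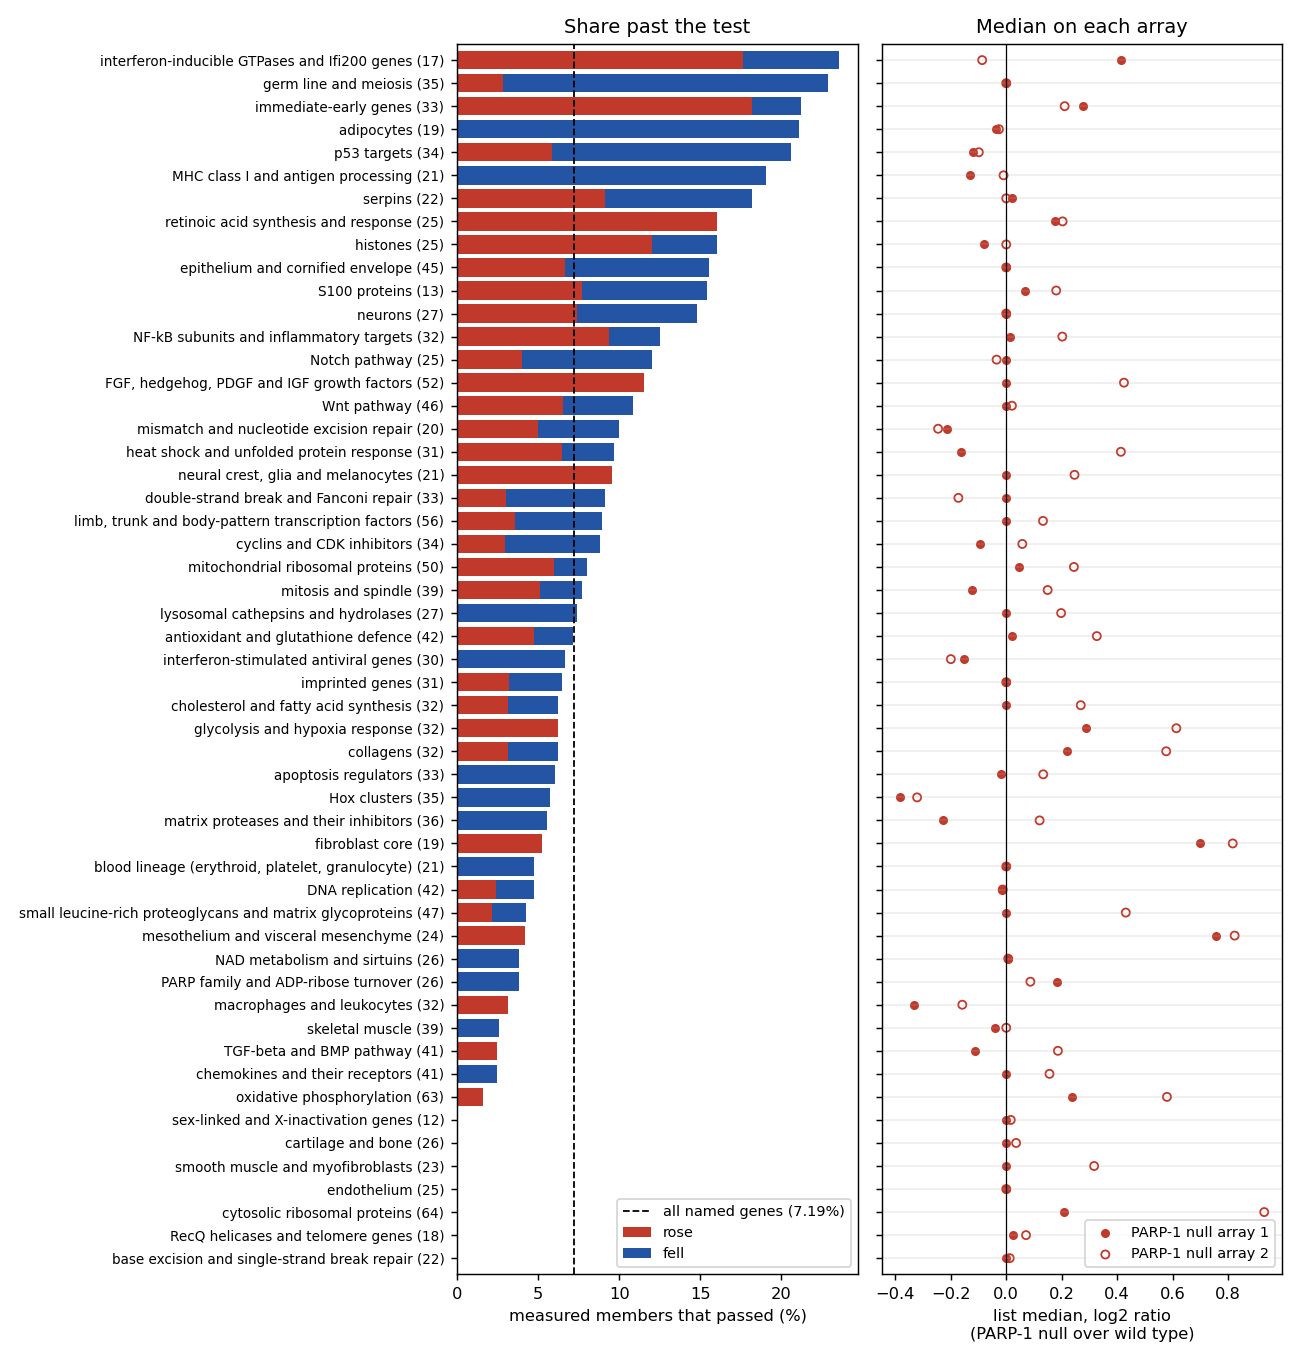
For each of the 53 gene lists (number of measured members in brackets), the share of members that rose (red) or fell (blue) in the PARP-1 null, with 7.19% for all named genes as a dashed line (left), and the list median of the log2 ratio on array 1 (filled) and array 2 (open) (right). The share was highest for interferon-inducible GTPases and Ifi200 genes at 23.5%, and the cytosolic ribosomal proteins show the widest gap between arrays, 0.21 on array 1 and 0.93 on array 2.

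Growth and energy genes lay high on array 2 more than on array 1. Of 64 measured cytosolic ribosomal protein genes 59 were above 0, with a median of 0.21 on array 1 and 0.93 on array 2. Of all named genes 46.3% were above 0. Limma called 0 of these ribosomal genes, with 13 (20.3%) at an unadjusted p under 0.05, against 27.5% of all named genes. Rplp1, a ribosomal stalk protein gene, was at 1.33 and 2.32. The oxidative phosphorylation list behaved alike, with 55 of 63 genes above 0 and medians of 0.24 and 0.58 on arrays 1 and 2. There 1 gene passed the test (1.59%), Cox7a1 at 0.92 and 1.12. Glycolysis and hypoxia genes had medians of 0.29 and 0.61 on arrays 1 and 2. Of 32 measured, 2 passed (6.25%, against 7.19% of all named genes): Ndrg1 at 1.06 and 1.26 and Pfkfb4 at 0.85 and 0.52. Collagens had medians of 0.22 and 0.58 on arrays 1 and 2. Over all named genes the median was 0 on each array.

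The 80 leading genes, the 40 largest increases and the 40 largest decreases among those that passed, had SDs between arrays from 0.016 to 0.88 for increases and from 0.035 to 0.78 for decreases. They were chosen for their values in the PARP-1 null, so their distance from the other mutants is a description. Both PARP-1 null arrays were at least 2-fold above both Wrn mutant arrays for 30 of the 40 increases and at least 2-fold below for 21 of the 40 decreases. In the Wrn mutant, 26 of the 40 decreases and 12 of the 40 increases were themselves at least 2-fold on the same side of wild type. The same distance from the double mutant held for 7 increases and 1 decrease.

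Increases beyond those above included membrane and signalling genes. Atp10d, a phospholipid flippase gene, lay at 3.92 and 3.48, and Slc1a3, a glutamate transporter gene, at 2.69 and 3.29. Mst1r, the receptor gene for macrophage-stimulating protein, lay at 2.79 and 2.18, and Otud7a, a deubiquitinase gene, at 3.40 and 3.01. Scara5, a ferritin receptor gene, lay at 2.42 and 2.76 and Mgll, which encodes the lipase of the endocannabinoid 2-arachidonoylglycerol, at 2.59 and 2.66. These 6 were above 2 on every PARP-1 null array. Mgll and Otud7a were higher still in the double mutant (3.47 and 3.31 for Mgll, 4.70 and 3.49 for Otud7a), whereas Scara5 was -0.80 and 0.58 there. Mybpc1, a muscle myosin-binding protein gene, lay at 2.62 and 3.29. It was listed at 0 on all arrays of the other mutants, and whether that 0 is measured or a placeholder is not stated. Rnase2a, an eosinophil ribonuclease gene of the mouse, lay at 3.06 and 2.52 and was listed at 0 in the Wrn mutant. Defb1, a beta-defensin gene of epithelia, rose to 2.58 and 2.69 while Defb6, another beta-defensin gene on the same chromosome, fell to -3.35 and -3.41. The pair moved in opposite directions, 10 measured genes apart. In the Wrn mutant Defb6 was low too, at -2.60 and -2.54, and Defb1 was listed at 0 on both arrays.

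Decreases were led by Nbeal2, known for platelet granules, at -5.08 and -5.78, and by the zinc finger gene Zfp874a at -4.34 and -4.52. In the Wrn mutant Nbeal2 was -0.56 and -0.69 and Zfp874a -0.58 and -0.31. Apoa2, an apolipoprotein gene, lay at -3.36 and -2.89 and Ptprg, a receptor-type phosphatase gene, at -2.57 and -3.01. The Ptprg values are averages of 2 spots that disagreed, 4.79 apart on the log2 scale in the PARP-1 null. Arsk, a sulfatase gene, lay at -2.63 and -2.92 and Samd4, which encodes an RNA-binding protein of the Smaug family, at -2.89 and -2.59. None of these 4 was low in the Wrn mutant, which had 0.47 and 0.76 for Apoa2, 0.078 and 0.18 for Ptprg, 0.29 and 0.91 for Arsk and 0.30 and -0.36 for Samd4. Other genes were low in both mutants. The estrogen receptor beta gene Esr2 was at -3.21 and -3.09 in PARP-1 null cells and at -2.26 and -3.40 in Wrn mutant cells, the coactivator gene Cited4 at -2.91 and -3.15 and -2.88 and -3.58, and the lens membrane gene Lim2 at -2.93 and -3.09 and -2.12 and -2.66. Dnmt3l, the DNA methylation cofactor of germ cells, was at -3.06 and -2.92 in PARP-1 null cells and at -1.87 and -2.55 in Wrn mutant cells. For Esr2 and Cited4 the arrays of the 2 mutants overlapped, whereas for Lim2 and Dnmt3l both PARP-1 null arrays were the lower.

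**Figure D4:**
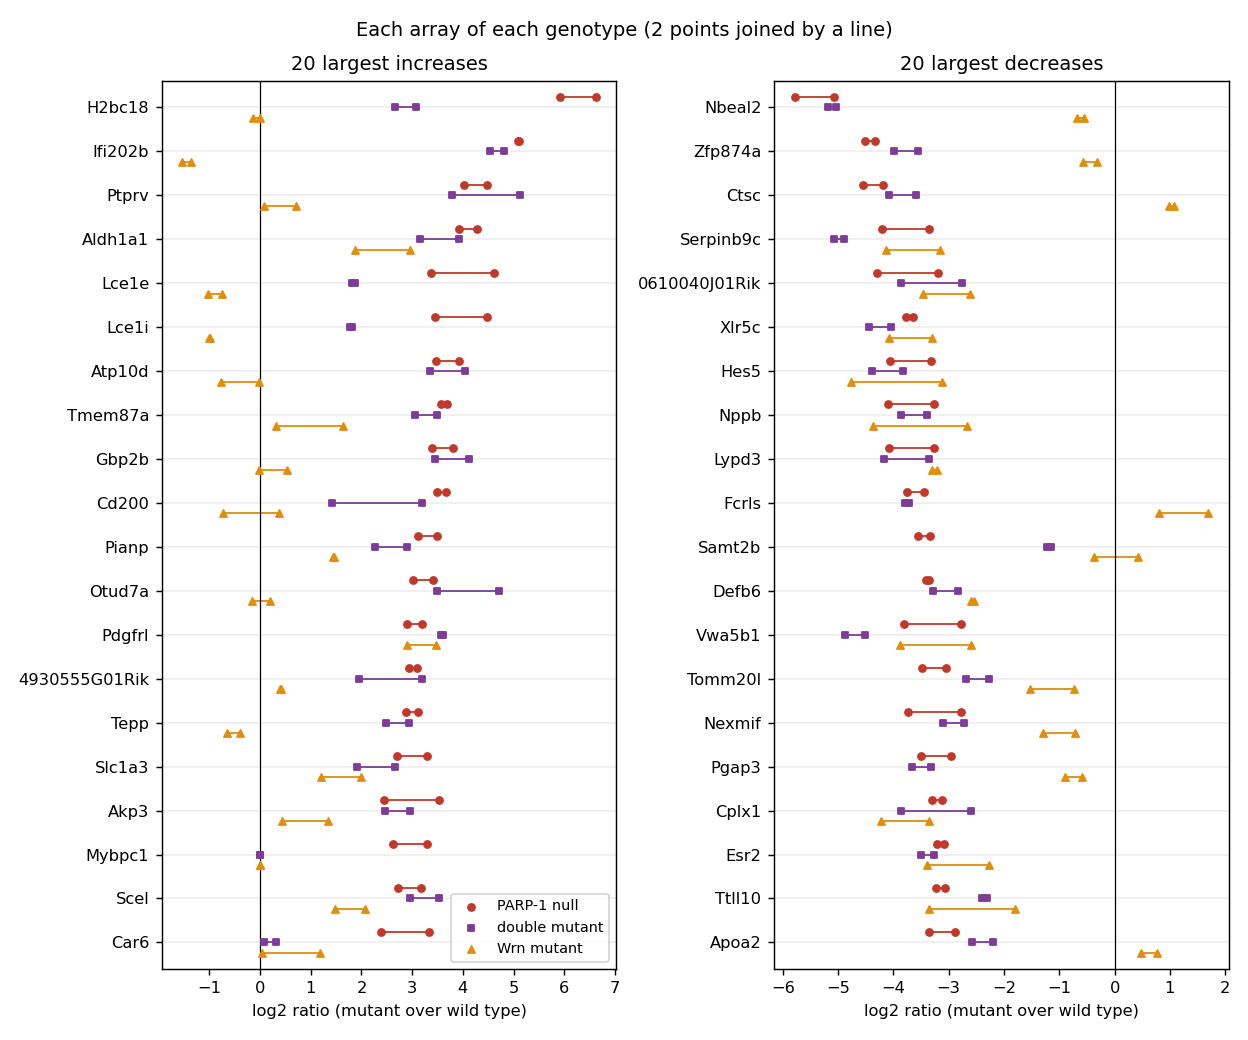
Log2 ratio over wild type on each array for the 20 largest increases (left) and 20 largest decreases (right) of the PARP-1 null, with PARP-1 null in red, double mutant in purple and Wrn mutant in orange. For Ifi202b and Ctsc the Wrn mutant lay on the other side of 0, whereas for Hes5 and Nppb all 3 genotypes overlapped.

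Set directly against the Wrn mutant, where probe dye bias cancels, 1 named gene passed limma's test, Ifi202b, higher by 6.54 (SE 0.12, adjusted p = 0.0436). This is 0.00606% of genes, while 1452 (8.80%) were at an unadjusted p under 0.05, 708 higher and 744 lower. By size alone, 130 genes had both PARP-1 null arrays at least 2-fold above both Wrn mutant arrays and 138 at least 2-fold below (1.62% together). Several of the largest gaps had an adjusted p just under 0.1. H2bc18 was higher by 6.33 (SE 0.31, adjusted p = 0.0990), Nbeal2 lower at -4.81 (SE 0.27, adjusted p = 0.0990), and Ctsc lower at -5.40 (SE 0.23, adjusted p = 0.0990). Parp1, the gene that differs by design, was at -2.24 (SE 0.20) with an adjusted p of 0.144, so this test missed a known difference. The call on Ifi202b was lost on the 4 arrays of the 2 genotypes alone, where limma passed 0 genes.

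Against the double mutant, which shares the null Parp1 allele, limma passed 0 genes (0%), with 1181 (7.16%) at an unadjusted p under 0.05, 380 higher and 801 lower. Both PARP-1 null arrays were at least 2-fold above both double-mutant arrays for 48 genes and below for 61 (0.66% together). H2bc18 had the PARP-1 null above the double mutant by 3.40 (SE 0.31, adjusted p = 0.447). Samt2b stood at -3.56 and -3.33 in PARP-1 null cells and at -1.21 and -1.15 in double-mutant cells. Gpx2, a glutathione peroxidase gene of epithelia, stood at -2.04 and -2.37 in PARP-1 null cells and at -0.73 and -0.78 in double-mutant cells. S100a8, which encodes a calprotectin subunit of neutrophils, was at 1.36 and 1.997 in PARP-1 null cells, at 4.89 and 4.64 in double-mutant cells and at -0.76 and -1.58 in Wrn mutant cells.

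Genes near Parp1 were looked at because an engineered allele carries a stretch of its strain of origin. Within 100 measured genes on each side, 189 genes in all since the chromosome ends first on the far side, 11 rose and 12 fell, 12.2%, against 6.69% of the other 762 measured genes of chromosome 1. Within 10 genes on each side 1 of 20 passed, the mitochondrial transcription factor gene Tfb2m at 0.60 and 0.67. Among the 4 nearest genes on either side, Itpkb, Psen2, Coq8a, Cdc42bpa, Lin9, Mixl1, Acbd3 and H3f3a, limma called 0, with 3 at an unadjusted p under 0.05 and adjusted p from 0.0855 for Coq8a to 0.658 for Psen2. Farther out on the near side stood Ifi202b and Ifi209, 42 and 44 genes from Parp1, Cadm3 (2.24 and 2.62), a cell adhesion gene, 46 genes away, Itln1 (2.02 and 1.68), an intestinal and mesothelial lectin gene, 84 genes away, and Apoa2 99 genes away. In the double mutant Ifi202b, Cadm3, Itln1 and Apoa2 had the same sign, at 4.53 and 4.80, 2.15 and 2.61, 2.13 and 1.51 and -2.21 and -2.59 in that order. Whether they differ through the strain of the flanking stretch or through the loss of PARP-1 cannot be told apart in these lines. Over the autosomes and the X chromosome the share that passed ran from 5.53% on chromosome 5 to 9.01% on chromosome 14, with chromosome 1 at 7.88%, and on the Y chromosome 0 of 11 passed.

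**Figure D5:**
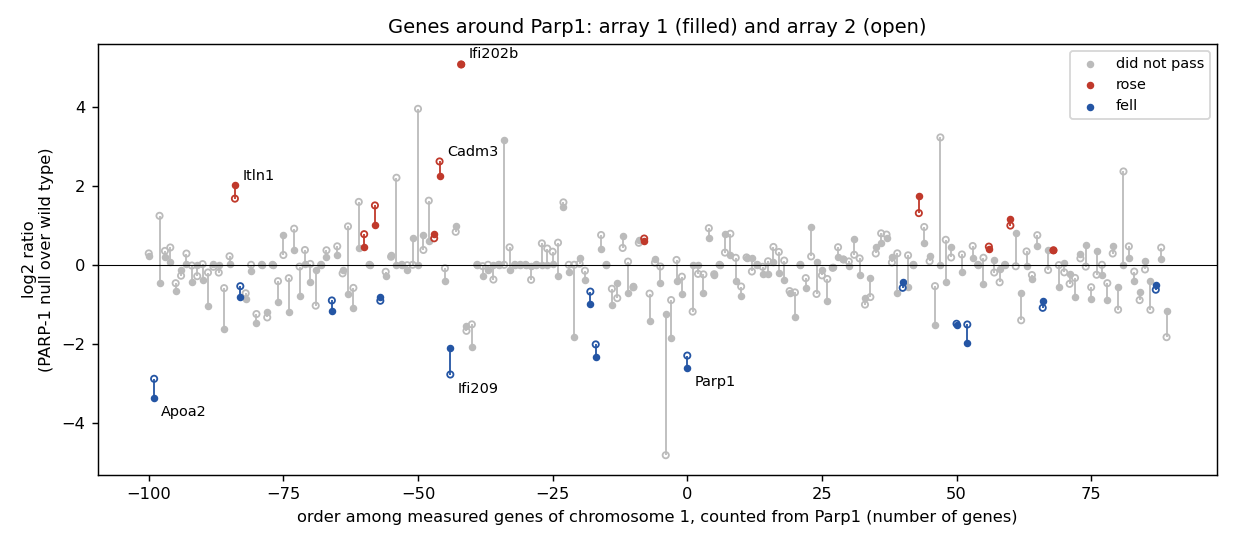
Log2 ratio of PARP-1 null over wild type on array 1 (filled) and array 2 (open) for the 189 measured genes around Parp1 in their order along chromosome 1, with genes that rose in red and fell in blue. Ifi202b stands at 5.10 and 5.08 some 42 genes before Parp1, while the 10 genes on each side of Parp1 hold 1 gene that passed.

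Y-linked genes bear on the sex of the pooled embryos. Eif2s3y lay at -5.33 and -3.37 and Kdm5d at -0.69 and -2.12, both low on the 2 arrays, while Uty was at 0 and -1.48. Xist, made from the inactive X chromosome, was at 1.48 and 0.35. Of 12 measured sex-linked genes 2, Eif2s3y among them, were 2-fold down on both arrays and 0 were 2-fold up. Over all named genes these shares were 3.84% and 2.70%. Limma called 0 of the 12, with 1 at an unadjusted p under 0.05 (27.5% of all named genes reached that). The part of a different share of male embryos in the other changes was not tested.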

How the data were processed

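The authors deposited 1 log10 ratio per spot for 22393 spots on each Agilent array. The base is read from the values, which end at exactly 2 in size. The ratio's direction, its centring and its background correction are not stated in any source used here. Each array's median was 0. Ratios were multiplied by 3.32 (log2 of 10), and the spots of a gene symbol of the platform annotation were averaged, which gave 16504 named genes, while 4175 spots without a single symbol stayed separate (20679 features). Where a gene had several spots, as 1193 did, the median range between them was 0.49. Of the genes that passed, 85 had several spots, and in 43 of these the range was above 1. Signal intensities were not used here, so depth is unknown, and precision is limited by how few arrays there are.

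Features were fitted together on the 6 arrays, with 1 coefficient for each genotype, in limma 3.58.1 in R 4.3.3 (lmFit, eBayes; data.table package 1.17.8), with 3 residual degrees of freedom and 0.66 from the prior. Benjamini-Hochberg adjustment ran across every feature, and 0.05 was the threshold. In the same fit the PARP-1 null was set against each other mutant. The p-values reflect only the differences among these arrays, part of which may be technical. The strain label of the duplicate double-mutant array reads wild type, so a fit without it was run too. The fit was tested on simulated data.

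Named genes were Parp1 and Wrn, the 40 largest increases and decreases that passed, for each of 53 lists (1696 of 1865 members measured) those that passed and up to 4 with the largest values that did not, the 10 genes on each side of Parp1 and the 10 that differed most between the arrays. Other genes were named after their values were seen, as key members of a list. Members and lists were chosen with earlier results of these data known. Gene order and upstream windows come from RefSeq (GRCm38.p6), whose symbols or IDs matched 16460 named genes. The array's own build is not stated. Alternatives were scale normalization, centring, the treatment of spots at 0 and at the end of the scale, 1 spot per gene, robust moderation, fewer arrays, each array left out and the array number as a block. Figures were made in Python 3.11.15 with matplotlib 3.10.9 and pandas 2.3.3.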

Additional observations from a re-analysis of the deposited data

Results flagged for a closer look

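Ifi202b differed between 2 of the mutant lines by the test of the difference itself. Set against wild type, it was 5.10 and 5.08 on the PARP-1 null arrays and -1.53 and -1.37 on the Wrn mutant arrays, a difference of 6.54 on the log2 scale (limma, Benjamini-Hochberg adjusted p = 0.0436), with both PARP-1 null arrays above both Wrn mutant arrays.

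Spots that carry no single gene symbol were left out of the counts above and held signal too. Of 4175 such spots 458 passed limma's test in the PARP-1 null, 10.97%, against 7.19% of named genes, and nothing in the sources used here says what they measure.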

How the results depend on the processing

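Against wild type, the 1187 named genes past limma's test became 1223 under scale normalization between arrays, 1631 with arrays centred without the spots at exactly 0, 971 with spots at the end of the scale left out and 1124 with 1 spot per gene, and 1078 genes were 2-fold on both arrays. The count was 2231 with spots at 0 taken as missing, 770 with robust variance moderation, of which 768 were among the 1187, and 0 both on the PARP-1 null arrays alone and with the array number as a replicate block. Leaving out 1 array at a time gave 56 to 597. Of the 80 leading genes, 76 still passed under scale normalization, 67 under robust moderation and 0 on the PARP-1 null arrays alone. None changed sign under any alternative run. They were chosen for the same sign on both arrays, so leaving out an array could not reverse them.

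Against the Wrn mutant the 1 call became 7 under scale normalization, 2 when centred without spots at 0, 2 under robust moderation, 16 with spots at 0 missing, and 0 on the 4 arrays alone and with the replicate block. It ran from 0 to 342 with 1 array left out, the highest without the first Wrn mutant array, and 317 without PARP-1 null array 1. The rule of 2-fold between every array gave 268 genes. Against the double mutant the count of 0 held under every setting except 1 array left out, which gave 0 to 286, the highest without PARP-1 null array 1, and the 2-fold rule gave 109. Where a count changed, the cause was not tested.

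The array numbers come from the mark of a duplicate in the titles and name no shared litter. Deviations of same-numbered arrays correlated with r of -0.11 between PARP-1 null and Wrn mutant and 0.17 between PARP-1 null and double mutant, so the numbers were not taken as pairs.

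The list medians had the same sign on both PARP-1 null arrays in 23 of the 53 lists, opposite signs in 9 and a value of 0 on an array in 21. Signal over background is unknown, and 21.6% of spots on array 1 and 17.99% on array 2 were exactly 0, so ratios of dim genes could not be set apart. With 3 residual degrees of freedom, significance rests largely on how closely 2 arrays happened to agree.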

Other observations

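In the heat shock and unfolded protein list 3 of 31 measured genes passed in the PARP-1 null, 9.68%, near the 7.19% of all named genes: Xbp1, a transcription factor of the unfolded protein response, rose to 0.74 and 0.84 and Herpud1, of protein disposal, to 0.75 and 0.67, while the small heat shock gene Hspb2 fell to -1.07 and -1.18. In the antioxidant list the glutathione transferase gene Gstt1 rose to 0.54 and 0.69, Hmox2 to 0.26 and 0.28, and Gpx2 fell to -2.04 and -2.37 (3 of 42, 7.14%). Among matrix proteases the sheddase gene Adam17 fell to -1.54 and -2.46 and Plau, the urokinase gene, to -1.17 and -1.55, and Mmp8, a neutrophil collagenase gene, was at 2.49 and 3.35 without passing (adjusted p = 0.0527 in limma). The Wnt list was mixed, with Wnt9a at 0.88 and 0.75, the receptor gene Fzd4 at 1.27 and 1.18 and Ccn5 at 1.58 and 2.10 among genes that rose and the receptor genes Fzd7 at -0.81 and -0.52 and Fzd8 at -1.19 and -1.15 among those that fell (5 of 46, 10.9%). S100a6, a calcium-binding protein gene, rose to 1.92 and 2.07, and S100a16 fell to -0.88 and -0.72. Among serpins Serpinb6b rose to 2.29 and 1.93 and Serpina6 to 1.71 and 1.28, and Serpinb9c fell to -4.21 and -3.36 and Serpinb2 to -1.69 and -1.18. All 4 of these serpins lay on the same side of 0 in the Wrn mutant, at 2.54 and 1.78, 1.88 and 2.59, -3.15 and -4.13 and -2.34 and -2.45 in the same order. Of 41 chemokine and receptor genes 1 passed (2.44%), while 7 were 2-fold up and 3 were 2-fold down on both arrays (2.70% and 3.84% of all named genes). Those up included Cxcl1 at 1.76 and 2.02 and Cxcl14 at 2.21 and 1.52, neither of which passed (adjusted p = 0.0635 for Cxcl1 and 0.110 for Cxcl14), and the gene that passed, Ccr10, fell to -3.59 and -2.61.

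The 2 PARP-1 null arrays parted on a set of genes that were near 0 or low on array 1 and very high on array 2. Klb, the FGF21 co-receptor gene, was at -0.41 and 6.64, where the second value is the end of the scale. Slc10a1, a bile acid transporter gene of liver, was at -1.92 and 5.005, Kcnf1 at -0.38 and 6.35 and Lrrc49 at -0.27 and 6.37. No gene was 2-fold up on array 1 and 2-fold down on array 2, whereas 21 went the other way. On array 2 alone 1291 genes were 2-fold from wild type and on array 1 alone 921. The mean of the 2 arrays describes neither in such genes.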
